A study of Mus musculus with 6 samples.

Results

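The 10 genes described here carry glucose into the cell, commit it to glycolysis and carry lactate out. They are the glucose carriers Slc2a1 and Slc2a3, the hexokinases Hk1, Hk2 and Hk3, the phosphofructokinase gene Pfkp, its regulator Pfkfb3, the lactate dehydrogenase gene Ldha, and the monocarboxylate carriers Slc16a1 and Slc16a3. They were listed by name, and all 10 were found among the 13912 genes of the deposited table. RNA was sequenced in 3 libraries of 4T1-Luc2-RFP cells isolated by FACS from MIND (mouse intraductal) tumours of the mammary gland. It was also sequenced in 3 libraries of cultured 4T1-Luc2-RFP cells, which were not injected and are not labelled as sorted. 4T1 cells derive from a BALB/c mammary carcinoma, the labels give the strain of both groups as balb/c, and the name of the line holds a luciferase and a red fluorescent protein in both groups. Age, injected cell number, time in the gland and sort gate are not given by the labels. Numbers 1, 2 and 3 name the libraries of a group in the order of their labels and pair nothing between groups.

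Glucose enters most cells through facilitative carriers, of which GLUT1 (Slc2a1) is widespread and GLUT3 (Slc2a3) has a higher affinity for glucose and is typical of neurons and of white blood cells. Hexokinases trap it as glucose 6-phosphate. Phosphofructokinase catalyses the committed step, PFKFB enzymes make the sugar bisphosphate that activates it, lactate dehydrogenase A reduces pyruvate to lactate, and MCT1 (Slc16a1) and MCT4 (Slc16a3) move lactate across the membrane. Carcinomas are known for high glucose uptake and lactate release, and activated myeloid cells are too.

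The libraries held 35448588 to 41469090 reads in the table, and counting error mattered mainly for genes close to 0 reads in culture. The labels do not say whether libraries of 1 group are separate mice or separate dishes, and the p-values then describe library-to-library spread only, which may be technical. Levels are given in CPM, the usual read count scaled to library size, and changes are tumour minus cultured means on the log2 CPM scale. The test was limma with Benjamini-Hochberg adjustment over all genes, and a gene was called at an adjusted p under 0.05. Of 12 carcinoma and mammary epithelial markers, 11 were in the table, and their summed level was 2833 to 3316 CPM in tumour libraries and 2799.7 to 3702 CPM in cultured libraries. Of these 11, 1 was called higher and 4 lower, at a median change of -0.24, and 6 were lower by quantile normalization. That median was 0.19 without cultured library 2. Of 14 macrophage and monocyte markers, all 14 were called higher in tumour libraries, with a summed level of 6835 to 10193 CPM against 27.8 to 38.6 CPM in cultured libraries. For neutrophils 9 of 10 markers were in the table, Ly6g being absent, and the 9 were called higher. Their summed level was 1473 to 4521 CPM in tumour libraries and 86.3 to 101 CPM in cultured libraries. Retnlg and Mmp8 were at 0 reads in culture. Fibroblast markers summed to 7932 to 9448 CPM in tumour libraries and 643 to 1063 CPM in cultured libraries, and 9 of 10 were called higher. Endothelial markers summed to 105 to 160.3 CPM against 1.52 to 3.03 CPM, and 9 of 9 were called higher. Of 10 lymphocyte markers 3 were in the table, at a summed 4.55 to 4.88 CPM in tumour libraries and at most 0.0221 CPM in cultured libraries. Of 8 red cell markers 3 were in the table, at 0.633 to 1.17 CPM in tumour libraries and 0.994 to 1.23 CPM in cultured libraries, and 1 was called lower. In bulk libraries more cells of a type and more RNA per cell cannot be told apart.

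Of the 10 genes, 8 were higher in tumour libraries, 0 were lower, and Ldha and Slc16a1 did not pass the test. Over all genes 48.2% were called, 29.5% higher and 18.8% lower. The 10 genes were chosen with earlier results of these data known, so the contrast with all genes is not independent of the data. For Slc2a3, Hk3 and Slc16a3, which had 2, 3 and 39 reads in culture, tumour reads alone brought the gene into the table, since the lowest read total of any deposited gene over the 6 libraries was 61. A higher level in tumour libraries was thereby fixed for Slc2a3 and Hk3. Of the other 7 genes, which were well read in both groups, 5 were called higher. The groups did not overlap for 9 of the 10 genes, 8 higher and 1 lower in tumour libraries. Of all genes 59.8% did not overlap, 34.6% higher and 25.2% lower. The median log2 change of the 10 was 1.77, and that of all genes was 0.08. Scaling moved the median of all genes to -0.14 after median centring of libraries, to -0.32 by quantile normalization and to 0.24 by scaling to the epithelial list. The share of called genes that were higher was 61.1% as deposited, 48.1% after centring, 35.2% after quantile normalization and 72.0% with the epithelial list. The 8 genes called higher were called under each of these scalings.

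**Figure D1:**
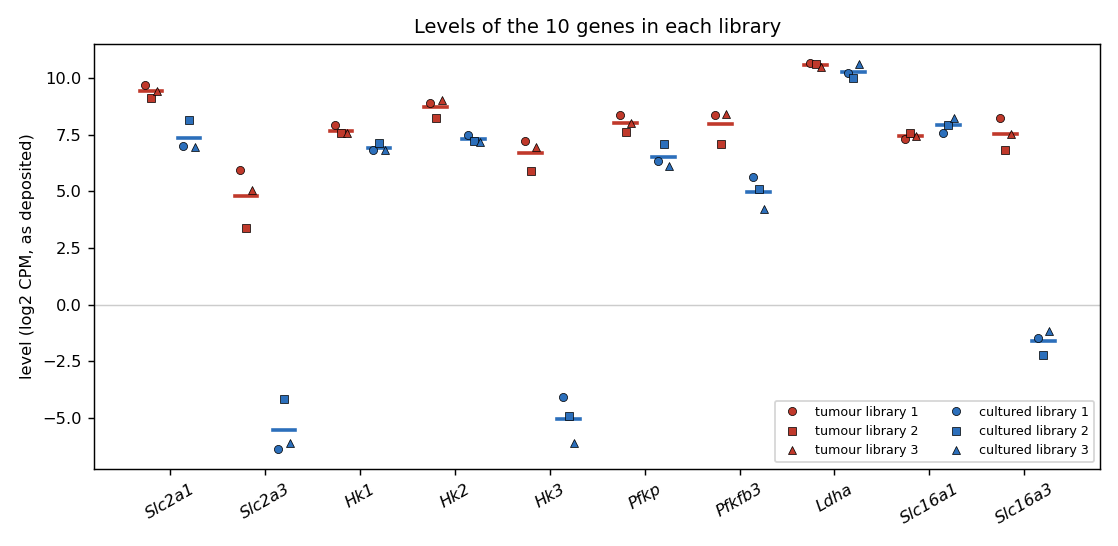
Level of each of the 10 genes in log2 CPM (vertical axis) in the 3 tumour libraries (red, left) and the 3 cultured libraries (blue, right), with a bar at the mean of the group. Slc2a3, Hk3 and Slc16a3 lie below 0 in every cultured library and above 3 in every tumour library, while Ldha overlaps between the groups.

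Promoter windows were taken from RefSeq on GRCm38.p6 for 9 of the 10 genes, in 12 windows of 300 bases that run from 250 bases before to 50 after a transcript start. Slc2a3 had no entry. The windows of 5 genes are shown because they span the patterns of the data, 4 genes that were called higher and 1 that was not. Capitals mark ACGTG and GCGTG, the core letters that hypoxia-inducible factors recognise, on either strand. The letters CACGTG, an E-box, read as ACGTG on both strands and so give 2 positions.
Slc2a1, chr4:119108495-119108794, plus strand: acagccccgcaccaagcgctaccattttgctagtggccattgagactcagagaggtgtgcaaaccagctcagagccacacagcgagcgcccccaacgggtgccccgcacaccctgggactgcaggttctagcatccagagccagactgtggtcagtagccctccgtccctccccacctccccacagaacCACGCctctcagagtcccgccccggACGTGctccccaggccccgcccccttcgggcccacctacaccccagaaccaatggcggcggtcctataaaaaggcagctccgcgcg
Hk2, chr6:82774405-82774704, minus strand: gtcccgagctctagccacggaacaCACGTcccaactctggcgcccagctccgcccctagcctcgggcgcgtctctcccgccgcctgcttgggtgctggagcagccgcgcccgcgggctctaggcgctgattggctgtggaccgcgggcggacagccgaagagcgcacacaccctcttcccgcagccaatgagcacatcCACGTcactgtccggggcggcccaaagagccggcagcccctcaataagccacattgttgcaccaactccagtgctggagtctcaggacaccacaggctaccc
Hk3, chr13:55021336-55021635, minus strand: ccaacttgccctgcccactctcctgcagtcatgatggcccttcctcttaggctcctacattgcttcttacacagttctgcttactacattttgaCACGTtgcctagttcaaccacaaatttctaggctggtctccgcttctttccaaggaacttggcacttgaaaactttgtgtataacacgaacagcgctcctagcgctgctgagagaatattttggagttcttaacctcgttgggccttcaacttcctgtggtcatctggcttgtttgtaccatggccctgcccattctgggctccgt
Slc16a3, chr11:120948817-120949116, plus strand: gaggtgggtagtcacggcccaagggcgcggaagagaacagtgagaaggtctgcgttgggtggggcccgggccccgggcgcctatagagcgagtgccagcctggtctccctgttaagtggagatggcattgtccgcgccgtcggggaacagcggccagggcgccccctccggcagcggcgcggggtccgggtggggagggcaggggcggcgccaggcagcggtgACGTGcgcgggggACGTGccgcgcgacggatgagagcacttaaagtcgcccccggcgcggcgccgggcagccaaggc
Ldha, chr7:46845554-46845853, plus strand: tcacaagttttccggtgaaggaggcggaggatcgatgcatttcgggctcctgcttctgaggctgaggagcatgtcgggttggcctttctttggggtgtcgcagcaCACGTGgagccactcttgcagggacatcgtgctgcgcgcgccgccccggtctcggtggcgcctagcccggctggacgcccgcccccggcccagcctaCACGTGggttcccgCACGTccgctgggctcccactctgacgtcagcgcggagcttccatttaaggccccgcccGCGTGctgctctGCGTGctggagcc

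ACGTG stood at 1 position in the Slc2a1 window, at 2 each in those of Hk2 and Slc16a3, at 1 in that of Hk3, and at 5 in this Ldha window, 4 of them from 2 E-boxes. Among windows not shown, one of Hk1 held ACGTG at 2 positions and GCGTG at 3, and another of Hk1 held neither. That of Slc16a1 held ACGTG at 3 positions and GCGTG at 2. GCGTG stood at 1 position in the Slc2a1 window, at 2 in that of Ldha and at 4 in that of Pfkp. ACGTG was found in 19.6% of 32851 promoter windows of this length, GCGTG in 32.4%, and one or the other in 43.8%. Among the 9690 windows with at least 60% G and C, one or the other was found in 69.2%. The Hk3 window was 49.0% G and C with 7 CpG pairs, and that of Slc16a3 was 73.3% with 36. Of the 12 windows, which belong to 9 genes, 11 held one or the other. Hk1, Pfkfb3 and Ldha had more than 1 window, so this is not a count of genes. A match describes letters only, and binding was not measured.

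Of the pair of glucose carriers, Slc2a1 had the higher level per kilobase in every library of both groups. Slc2a1 lies on GRCm38 chromosome 4 from 119108711 to 119137983 and is protein-coding, as are the other 9 genes. It stood at 841, 564 and 697 CPM in tumour libraries 1, 2 and 3, against 127, 284 and 124 CPM in cultured libraries 1, 2 and 3. Every tumour library was above every cultured library, and cultured library 2 stood apart from the other cultured libraries. The log2 change was 2.07 (SE 0.34, limma adjusted p = 0.00162), a 4.19-fold difference, and it was 2.46 without cultured library 2.

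Slc2a3, on chromosome 6 from 122727809 to 122801640, was close to absent in culture. It stood at 61.8, 10.4 and 33.7 CPM in tumour libraries 1, 2 and 3, against 0, 0.0442 and 0 CPM in cultured libraries. All cultured reads were the 2 of cultured library 2. The groups did not overlap, and tumour library 2 was the lowest of the tumour libraries. Sums of neutrophil, macrophage, fibroblast, endothelial and lymphocyte markers were lowest there too. Epithelial markers had their lowest sum in tumour library 1 and red cell markers in tumour library 3. The part of any of these cells was not tested. The ratio of CPM was 2115, with a 95% counting interval of 585.1 to 17470. The log2 change was 10.37 (limma adjusted p = 2.57e-05), in the direction fixed by the lowest read total of the table. Per kilobase of the longest coding transcript, Slc2a1 averaged 215 ± 42.5 and Slc2a3 8.91 ± 6.50 CPM per kb in tumour libraries (SD, n = 3). Slc2a3 thus gave 5.70%, 1.50% and 3.83% of the summed level of the pair in tumour libraries 1, 2 and 3, against at most 0.0128% in cultured libraries. The log2 ratio of Slc2a3 to Slc2a1 was higher in tumour libraries by 8.31 (SE 0.51, limma adjusted p = 7.47e-06). The fixed direction of Slc2a3 limits that comparison, and its size depends on the reads added before the log. With 3 libraries against 3, an exact two-sided permutation test cannot go below 0.10, the value that this ratio and each of the other 5 ratios between the 10 genes gave.

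Of the other glucose carriers, 6 of 10 were in the table, 4 were called higher and 0 lower, at a median change of 1.85. The share called was 66.7%, against 48.2% of all genes. Slc2a10, a carrier linked to arterial tortuosity in humans, had 2 reads in culture and averaged 3.29 ± 0.180 CPM in tumour libraries (SD, n = 3). Slc2a13, the proton myo-inositol carrier, had 3 reads in culture and 1.57 ± 0.337 CPM in tumour libraries (SD, n = 3), and the direction of both was again fixed by the lowest read total of the table. Slc2a8, an intracellular glucose carrier, and Slc2a9, a urate carrier, rose by 1.39 (limma adjusted p = 0.0194) and 1.11 (limma adjusted p = 0.0162). Without tumour library 3 the list held 2 calls, and without tumour library 1 or 2 it held 3. By quantile normalization 3 were higher and 1 lower, at a median change of 1.03. The call of Slc2a8 was lost without tumour library 1, 2 or 3 (limma adjusted p = 0.0614, 0.0661 and 0.0628) and by quantile normalization (0.148), and that of Slc2a9 without tumour library 2 or 3 (limma adjusted p = 0.0526 and 0.0728).

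Hk1 and Hk2 were higher in tumour libraries. Hk3 was nearly absent from culture, and its direction was fixed by the lowest read total of the table. Hk1, the widespread form that sits on mitochondria, lies on chromosome 10 from 62268855 to 62379908. It stood at 243, 192 and 190.1 CPM in tumour libraries, against 115, 141 and 115 CPM in cultured libraries, with no overlap and the smallest called change of the 10 genes, 0.75 (SE 0.16, limma adjusted p = 0.00725). Hk2, the inducible form of muscle, fat and many tumours, lies on chromosome 6 from 82725025 to 82774454. It stood at 483, 299.8 and 524 CPM in tumour libraries 1, 2 and 3, against 179, 150.0 and 145 CPM in cultured libraries. Tumour library 2 was the lowest of its group but still above all cultured libraries, and the change was 1.43 (SE 0.23, limma adjusted p = 0.00164), a 2.69-fold difference.

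Hk3, a hexokinase known mainly from myeloid cells, lies on chromosome 13 from 55005985 to 55021385. It stood at 150.1, 59.7 and 123 CPM in tumour libraries 1, 2 and 3, against 0.0469, 0.0221 and 0 CPM in cultured libraries, which is 2, 1 and 0 reads. The ratio of CPM was 4476 (95% counting interval 1531 to 21710). The log2 change was 11.73 (limma adjusted p = 2.89e-06), in the direction fixed by the lowest read total of the table. Tumour library 2 differed from the mean of the other tumour libraries by -1.19 on the log2 scale for Hk3, by a median of -0.57 for macrophage markers and by a median of -2.43 for neutrophil markers. The median was -0.54 for endothelial, -0.32 for fibroblast and -0.01 for epithelial markers. The part of these cells in the level of Hk3 was not tested.

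Per kilobase of coding transcript, Hk2 averaged 79.0 ± 21.7, Hk1 48.7 ± 6.97 and Hk3 34.5 ± 14.4 CPM per kb in tumour libraries (SD, n = 3). In tumour libraries 1, 2 and 3 Hk2 was the highest of the 3 genes. Hk1 spanned 44.4 to 56.7 and Hk3 18.5 to 46.6 CPM per kb over the tumour libraries, so their ranges overlapped, while Hk1 was above Hk3 within each of these libraries. In cultured libraries Hk1 averaged 29.0 ± 3.52 and Hk2 28.7 ± 3.35 CPM per kb (SD, n = 3), and neither led in all 3 libraries. Hk3 gave 24.4%, 15.7% and 21.5% of the summed hexokinase level in tumour libraries 1, 2 and 3, against at most 0.0245% in cultured libraries. The order rests on the length used, since over the union of all annotated exons Hk2 averaged 73.0 ± 20.0, Hk3 30.1 ± 12.6 and Hk1 24.4 ± 3.50 CPM per kb in tumour libraries, and Hk2 26.5 ± 3.10 and Hk1 14.5 ± 1.77 CPM per kb in cultured libraries (SD, n = 3).

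The balance of Hk2 to Hk1, as a log2 ratio, was 0.99, 0.64 and 1.46 in tumour libraries, against 0.64, 0.09 and 0.33 in cultured libraries. Tumour library 2 and cultured library 1 had the same rounded value, and the difference of 0.68 (95% interval 0.12 to 1.25, limma adjusted p = 0.0503) lay at the threshold and did not pass. It passed in the ratio form first planned (limma adjusted p = 0.0479), with 2 added reads (0.0478), by quantile normalization (0.0422), without tumour library 2 (0.0299) and without cultured library 1 (0.0439). Ratios of Hk3 to Hk1 and to Hk2 were higher in tumour libraries by 10.99 (SE 0.52, limma adjusted p = 2.30e-06) and 10.31 (SE 0.42, limma adjusted p = 1.31e-06). The fixed direction of Hk3 limits both ratios, and their sizes depend on the reads added before the log.

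**Figure D2:**
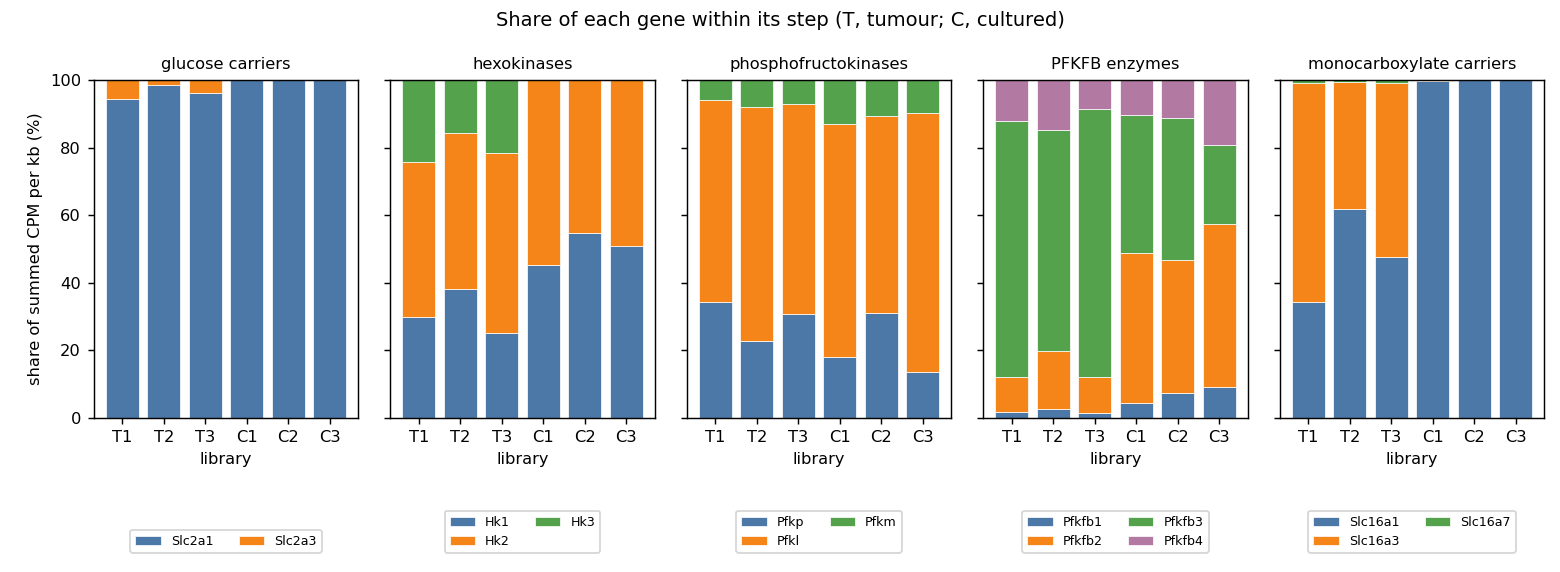
Share of each gene in the summed CPM per kb of coding transcript of its step (vertical axis, percent), for tumour libraries T1 to T3 and cultured libraries C1 to C3. Hk3 holds 15.7% to 24.4% of the hexokinase level in tumour libraries, Pfkfb3 65.3% to 79.5% of the PFKFB level, and Slc16a3 37.5% to 65.1% of the monocarboxylate carrier level. Pfkl, Pfkm, Pfkfb1, Pfkfb2, Pfkfb4 and Slc16a7 are not among the 10 genes.

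At the committed step, Pfkp and its regulator Pfkfb3 were both higher in tumour libraries. Pfkp, the platelet-type phosphofructokinase, lies on chromosome 13 from 6579768 to 6648777. It stood at 332, 199 and 259 CPM in tumour libraries 1, 2 and 3, against 82.4, 136 and 70.6 CPM in cultured libraries 1, 2 and 3. The groups did not overlap, and cultured library 2 was the highest of its group, as it was for Slc2a1. The change was 1.48 (SE 0.29, limma adjusted p = 0.00384). The exons of Pfkp overlap those of Pitrm1 on the opposite strand over 748 bases, and reads there cannot be assigned without strand. Pitrm1 averaged 116 CPM in tumour libraries and 172 CPM in cultured libraries, a direction opposite to that of Pfkp.

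Among the 3 phosphofructokinase genes, Pfkl, the liver type, had the highest level per kilobase in every library. Pfkl stood at 140.4, 147 and 128 CPM per kb in tumour libraries, against 76.8, 61.4 and 95.7 CPM per kb in cultured libraries. Pfkp averaged 63.5 ± 16.0 CPM per kb in tumour libraries and 23.2 ± 8.37 CPM per kb in cultured libraries (SD, n = 3). Pfkl rose by 0.85 (limma adjusted p = 0.00870), and its ratio to Pfkp had a difference of -0.63 (95% interval -1.56 to 0.30, limma adjusted p = 0.230), which was -1.07 without cultured library 2 (limma adjusted p = 0.0248). Pfkm, the muscle type, had a change of 0.27 (limma adjusted p = 0.225), and its ratio to Pfkp was lower, at -1.21 (SE 0.36, limma adjusted p = 0.0262). That call rested on single libraries, with an adjusted p of 0.0804 without tumour library 3, 0.0915 without tumour library 1, 0.0873 without cultured library 1 and 0.0579 without cultured library 3.

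Pfkfb3 encodes the PFKFB form with the strongest kinase activity, and so raises the activator of phosphofructokinase. It lies on chromosome 2 from 11471433 to 11554077. It stood at 329.9, 138 and 346 CPM in tumour libraries 1, 2 and 3, against 49.8, 35.1 and 18.6 CPM in cultured libraries 1, 2 and 3. The groups were well apart, tumour library 2 was low and cultured library 3 was low. The change was 2.98 (SE 0.45, limma adjusted p = 0.00111), a 7.87-fold difference and the largest among the 7 genes well read in both groups. Its ratio to Pfkp was higher in tumour libraries by 1.50 (SE 0.37, limma adjusted p = 0.0126), with an adjusted p of 0.0506 without tumour library 3.

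Within the PFKFB family Pfkfb3 had the highest level per kilobase in the 3 tumour libraries, while Pfkfb2 was highest in cultured libraries 1 and 3 and Pfkfb3 in cultured library 2. Per kilobase, Pfkfb3 averaged 56.6 ± 24.1 and Pfkfb2 8.88 ± 1.11 CPM per kb in tumour libraries, against 7.18 ± 3.25 and 8.72 ± 2.33 CPM per kb in cultured libraries (SD, n = 3). Pfkfb3 thus gave 75.8%, 65.3% and 79.5% of the family level in tumour libraries 1, 2 and 3, against 40.8%, 42.1% and 23.3% in cultured libraries 1, 2 and 3. Pfkfb2, the form of heart and other tissues, had a change of 0.05 (95% interval -0.46 to 0.57, limma adjusted p = 0.864), and its ratio to Pfkfb3 was lower, at -2.92 (SE 0.37, limma adjusted p = 0.000405). Pfkfb4, an isoenzyme induced by low oxygen, rose by 1.70 (limma adjusted p = 0.00156), and its ratio to Pfkfb3 had a difference of -1.28 (95% interval -2.39 to -0.17, limma adjusted p = 0.0590). By quantile normalization that difference was -1.55 (limma adjusted p = 0.0150).

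Of 11 brakes and regulators of glycolysis, 9 were in the table, 3 were called higher and 1 lower, at a median change of 0.23. The share called was 44.4%, against 48.2% of all genes. Besides Pfkfb4, the genes called higher were Arrdc3, an arrestin of the family of the glucose uptake inhibitor Txnip, at 2.30 (limma adjusted p = 0.000851), and Fbp1. Fbp1, the fructose bisphosphatase of gluconeogenesis, had 0 reads in culture, which fixed its direction. It averaged 0.805 ± 0.206 CPM in tumour libraries (SD, n = 3), at least 32.96-fold above a floor of 3 reads for the whole cultured group, and its call was lost by quantile normalization (0.0819). Tigar, which lowers the activator that Pfkfb3 makes, was called lower at -1.23 (limma adjusted p = 0.00340). Txnip, named after its values were seen, stood at 7.25, 6.51 and 6.82 log2 CPM in tumour libraries against 7.21, 9.46 and 3.22 log2 CPM in cultured libraries, so the cultured libraries spanned 6.24 log2 units. Without cultured library 2 the median change of the list was 1.51.

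**Figure D3:**
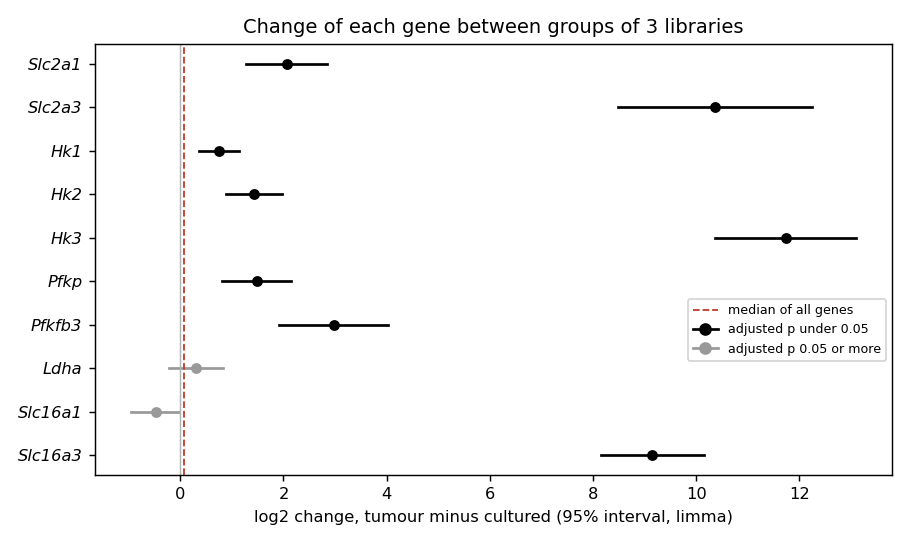
Log2 change of each gene, tumour minus cultured (horizontal axis), with limma's 95% interval, black where the adjusted p was under 0.05 and grey where it was not. The dashed line is the median of all genes, 0.08, and the values for Slc2a3, Hk3 and Slc16a3 depend on the reads added before the log, since these had 39 reads or fewer in culture.

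Ldha had the highest level per kilobase of the 10 genes, and no change that passed the test. It lies on chromosome 7 from 46841475 to 46855627 and stood at 1627, 1596 and 1450.0 CPM in tumour libraries, against 1219.6, 1038 and 1581 CPM in cultured libraries. Cultured library 3 lay within the range of the tumour libraries, and the change was 0.30 (95% interval -0.22 to 0.82, limma adjusted p = 0.296). Without cultured library 3 it was 0.47 (limma adjusted p = 0.0372). Of the stretches of 50 bases in its longest coding transcript, 16.6% also occur in transcripts of 14 other annotated genes, so some reads could not be placed on it. Ldhb, the other subunit, was low beside it, at 6.39 ± 0.812 against 858 ± 52.1 CPM per kb for Ldha in tumour libraries, and at 0.136 ± 0.0309 against 705 ± 152 CPM per kb in cultured libraries (SD, n = 3). Ldhb had 22 reads in culture, so its direction too was fixed by the lowest read total of the table, and its change was 5.47 (SE 0.32, limma adjusted p = 5.86e-06). Some of its 50-base stretches occur in 1 other gene. The ratio of Ldhb to Ldha differed by 5.16, with the same limit (SE 0.26, limma adjusted p = 2.93e-06).

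Of 21 other glycolytic enzymes, 17 were in the table, 8 were called higher and 1 lower, at a median change of 0.27. The share called was 52.9%, against 48.2% of all genes. By the size of the change the leading genes were Ldhb, the enolase gene Eno2 at 2.32 (limma adjusted p = 0.0294), the aldolase gene Aldoc at 2.08 (limma adjusted p = 0.0113), and the mutase gene Pgam2, at 1.06 (limma adjusted p = 0.0308). By quantile normalization Pgam2 was lower, at -1.82 (limma adjusted p = 0.00226). The call of Pgam2 was also lost after median centring and without any 1 library but cultured library 3, and that of Eno2 without tumour library 1, 2 or 3 or cultured library 1, at adjusted p-values of 0.0515 to 0.140. Without tumour library 1, 2 or 3 or cultured library 1, 5 of the 17 enzymes were called higher and 0 lower. By quantile normalization 5 were higher and 4 lower, and after median centring 6 were higher and 2 lower, at a median change of 0.04. Among highly read enzymes, Gpi1, the isomerase after hexokinase, rose by 0.92 (limma adjusted p = 0.00255), and Aldoa, the main aldolase, by 0.88 (limma adjusted p = 0.00835), both named after their values were seen. Shared 50-base stretches made up 25.3% of the Gpi1 transcript and 13.5% of the Aldoa transcript. The enzyme genes Pkm and Pgk1, with 34.4% and 68.0% shared, had changes of 0.11 and 0.16 (limma adjusted p = 0.748 and 0.373). The call of Aldoa was lost by quantile normalization (0.54, limma adjusted p = 0.0819). Gapdh and Eno1 averaged 0.707 and 3.55 CPM in tumour libraries and 0.797 and 4.70 CPM in cultured libraries. Shared 50-base stretches made up 82.5% of the Gapdh transcript and 72.2% of the Eno1 transcript, and no direction is drawn from them. The share was 0 for Slc2a3, Hk2, Hk3, Slc16a1 and Slc16a3, 0.631% for Pfkfb3, 1.74% for Slc2a1, 2.55% for Hk1 and 17.1% for Pfkp, whose 1 partner was Pitrm1.

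The lactate carriers differed from each other, with Slc16a3 near absent from culture and Slc16a1 well read in both groups. Slc16a1, on chromosome 3 from 104638668 to 104658462, encodes MCT1, a carrier that works in both directions. It stood at 161, 189.8 and 173 CPM in tumour libraries, against 190.2, 247 and 309 CPM in cultured libraries. The groups did not overlap, but tumour library 2 lay just under cultured library 1. The change was -0.48 (95% interval -0.95 to -0.02, not adjusted for the number of genes) and did not pass (limma adjusted p = 0.0803). It was called with libraries centred on their median, at -0.71 (limma adjusted p = 0.0237), and without cultured library 1, at -0.66 (limma adjusted p = 0.0216).

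Slc16a3, on chromosome 11 from 120948480 to 120960868, encodes MCT4, the lactate exporter of glycolytic muscle, white blood cells and many tumours. It stood at 302, 113 and 185 CPM in tumour libraries 1, 2 and 3, against 0.352, 0.199 and 0.431 CPM in cultured libraries, where it had 15, 9 and 15 reads. Every tumour library was far above every cultured one, and tumour library 2 was the lowest of its group. Sums of neutrophil, macrophage, fibroblast and endothelial markers were also lowest in that library, but not the sum of epithelial markers, and the part of these cells was not tested. The ratio of CPM was 618.7 (95% counting interval 452.4 to 870.3), and the log2 change was 9.15 (limma adjusted p = 2.24e-06). Per kilobase Slc16a3 averaged 46.0 ± 22.0 and Slc16a1 39.5 ± 3.23 CPM per kb in tumour libraries, against 0.0755 ± 0.0272 and 56.2 ± 13.4 CPM per kb in cultured libraries (SD, n = 3). Slc16a3 led in tumour libraries 1 and 3 and Slc16a1 in tumour library 2, so neither led throughout the tumour group, and over the union of exons the means were 37.5 ± 17.9 for Slc16a3 and 39.5 ± 3.23 CPM per kb for Slc16a1 (SD, n = 3). The log2 ratio of Slc16a3 to Slc16a1 was 0.90, -0.75 and 0.09 in tumour libraries, against -9.03, -10.20 and -9.44 in cultured libraries. The difference was 9.64 (SE 0.45, limma adjusted p = 2.15e-06).

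Of 13 other carriers and chaperones of this family, 11 were in the table, 6 were called higher and 1 lower, at a median change of 1.34. The share called was 63.6%, against 48.2% of all genes. Emb, which encodes embigin, a chaperone of monocarboxylate carriers, had 3 reads in culture and averaged 127 ± 38.7 CPM in tumour libraries (SD, n = 3). The ratio of CPM was 5161 (95% counting interval 1766 to 25030), and 22.2% of the 50-base stretches of Emb also occur in 1 other gene. Slc16a7, which encodes MCT2, averaged 6.84 ± 2.28 CPM in tumour libraries (SD, n = 3) and had 0 reads in culture, a difference of at least 276.8-fold with the same floor. Slc16a12, a creatine carrier, averaged 1.02 ± 0.399 CPM in tumour libraries (SD, n = 3) and had 3 reads in culture, and its call was lost by quantile normalization (limma adjusted p = 0.400). Bsg, the basigin chaperone of MCT1 and MCT4, named after its values were seen, was high in both groups, at 619 ± 28.4 CPM in tumour libraries and 430.0 ± 47.9 CPM in cultured libraries (SD, n = 3, limma adjusted p = 0.0270). Its call was lost after median centring (0.167), by quantile normalization (0.0942) and without tumour library 1, 2 or 3 or cultured library 1 (0.0648 to 0.113). By quantile normalization the list held 4 higher and 4 lower calls. For Emb, Slc16a7 and Slc16a12 the direction was fixed by the lowest read total of the table.

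Genes of other fates of glucose were called in both directions, but none of the glycogen list was called lower. Of all genes 48.2% were called, 29.5% higher and 18.8% lower. The share called was smaller in the pyruvate list, at 38.5%. In the pentose phosphate and glycogen lists it was close to that of all genes. Of 13 tested genes of pyruvate entry into mitochondria, 1 was called higher and 4 lower, at a median change of -0.37. The pyruvate dehydrogenase components Pdhx, Dld and Dlat were lower, at -0.78, -0.72 and -0.57 (limma adjusted p = 0.0123, 0.00374 and 0.0164), and Pdk2, a kinase that inhibits the complex, rose by 1.87 (limma adjusted p = 0.0187). Without tumour library 1 or 3 the list held 2 or 1 lower calls, with the epithelial scaling it held 1, and the call of Pdk2 was lost without tumour library 1, 2 or 3 or cultured library 1. By quantile normalization the change of Pdk2 was 0.07 (limma adjusted p = 0.864), and the list held 0 higher and 8 lower calls. After median centring it held 1 higher and 6 lower, at a median of -0.60. The calls of Pdhx and Dlat were lost without tumour library 3, and that of Dlat also without tumour library 1. Of 8 pentose phosphate genes, 2 were called higher and 2 lower. H6pd of the endoplasmic reticulum rose by 0.76 (limma adjusted p = 0.00994) and Taldo1 by 0.55 (limma adjusted p = 0.0343), while Rpia and Rpe were lower, at -0.68 and -0.53 (limma adjusted p = 0.00723 and 0.0339). The call of Rpe was lost without any 1 library but cultured library 3, and that of Taldo1 without tumour library 1 or 3 or cultured library 1 or 2. Taldo1 was also lost after median centring (0.33, limma adjusted p = 0.170) and with no variance trend (0.0636), and Rpe with the epithelial scaling (0.0924) and with no variance trend (0.0602). Of 10 glycogen genes, 5 were called higher and 0 lower. Pygl, the glycogen phosphorylase of liver and of white blood cells, had 80.4 ± 33.3 CPM in tumour libraries (SD, n = 3) and 1 read in culture, so its direction was fixed by the lowest read total of the table. Ugp2, which makes the donor for glycogen synthesis, rose by 1.31 (limma adjusted p = 0.000130). Pgm2 rose by 0.84 (limma adjusted p = 0.0169). Pygm, the muscle phosphorylase, had a change of 2.49 (limma adjusted p = 0.0338), with overlapping groups and 35 reads in culture. Without tumour library 1 the glycogen list held 2 calls, and without tumour library 2 or 3 or cultured library 1 it held 3. The call of Pgm2 was lost without tumour library 1 or 2, and that of Pygm without tumour library 1 or 3 or cultured library 1 or 2.

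The spread within each group was not the same for all 10 genes. In tumour library 2, 7 of the 10 genes had their lowest tumour value, as did 5452 of all 13912 genes. Slc2a3 differed there from the mean of tumour libraries 1 and 3 by -2.13 on the log2 scale, Pfkfb3 by -1.29, Hk3 by -1.19, Slc16a3 by -1.07 and Hk2 by -0.75. Ldha and Slc16a1 differed by 0.05 and 0.18. Neutrophil markers differed in that library by a median of -2.43, with 8 of 9 at their lowest tumour value, macrophage markers by -0.57, with 13 of 14, and endothelial markers by -0.54, with 9 of 9. Fibroblast markers differed by -0.32, with 6 of 10, hypoxia reporters by -0.32, with 9 of 10, and epithelial markers by -0.01, with 4 of 11. The part of these cells in the levels of the 10 genes was not tested.

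In the cultured libraries the order was different. Slc2a1, Hk1 and Pfkp were highest in cultured library 2, Pfkfb3 and Hk2 in cultured library 1, and Ldha and Slc16a1 in cultured library 3. Of all 13912 genes, 4427 were highest in cultured library 2 among the cultured libraries, as were all 10 genes of a list of hypoxia reporters. Their median was 7.87, 7.72 and 7.78 log2 CPM in tumour libraries 1, 2 and 3, against 6.16, 7.23 and 5.58 log2 CPM in cultured libraries 1, 2 and 3. Of the 10, 6 were called higher and 0 lower, at a median change of 1.67. Of all genes 48.2% were called, 29.5% higher and 18.8% lower. Without cultured library 2 all 10 reporters were called higher, at a median change of 2.30, and without tumour library 1 or 3 the number was 4. Adm, a vasodilator peptide gene, had 6 reads in culture, which fixed its direction, and Bnip3, a mitophagy receptor with 62.4% of its 50-base stretches shared, rose by 2.48 (limma adjusted p = 0.00524). Vegfa, the vascular growth factor, rose by 2.39 (limma adjusted p = 0.0203), and Car9, a carbonic anhydrase of the cell surface, by 2.20 (limma adjusted p = 0.0235). The call of Vegfa was lost without tumour library 1 or 3, and that of Car9 without tumour library 1, 2 or 3, at adjusted p-values of 0.0557 to 0.0754. The part of what moved this list in the levels of the 10 genes was not tested.

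**Figure D4:**
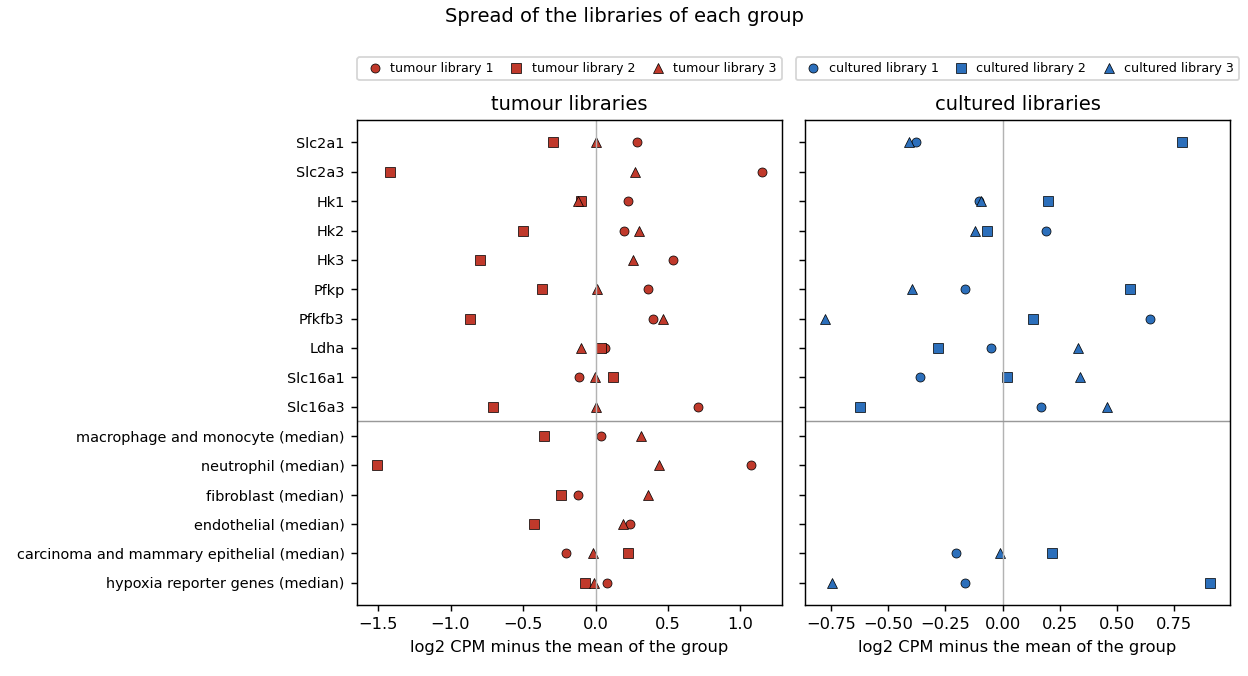
Each library's log2 CPM minus the mean of its group (horizontal axis), for the 10 genes and, below the line, for the median of 6 gene lists, in tumour libraries (left) and cultured libraries (right). Slc2a3 spans 2.57 log2 units over the tumour libraries with library 2 lowest, and the neutrophil, endothelial and hypoxia reporter medians show the same order. The macrophage and fibroblast medians are also lowest in tumour library 2, and the epithelial median is lowest in tumour library 1. Genes and lists with almost no reads in culture are not drawn there.

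By distance between profiles, the genes nearest to Hk3 were Entpd1 and Laptm5, at a root mean square difference of 0.22 and 0.25 log2 units over the 6 libraries, each gene centred on its mean. Those nearest to Slc2a3 were Il1b and Csf2rb2 (0.47 and 0.62), and those nearest to Slc16a3 were Selplg and Dock10 (0.30 and 0.35). Pfkfb3 was nearest to Tnfrsf1b and Cyth1 (0.25 and 0.29), Slc2a1 to Mfsd12 and S100a14 (0.095 and 0.11), Hk2 to Sfmbt1 and Pik3r1 (0.087 and 0.12), and Pfkp to Khnyn and Arid3a (0.10 and 0.10). Hk1 was nearest to Map2k1 and Hic2 (0.065 and 0.080), Ldha to Sec24c and Arl5a (0.044 and 0.049), and Slc16a1 to Prpf19 and Hint1 (0.033 and 0.039). Only genes with a mean of at least 1 log2 CPM were compared, a level that Hk3 and Slc2a3 themselves do not reach. With 3 and 2 reads in culture, the distances of Hk3 and Slc2a3 also depend on the reads added before the log.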

How the data were processed

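Total RNA of 3 sorted tumour and 3 cultured libraries was sequenced after TruSeq RNA preparation, per the labels' protocols, which do not name a strand setting. The submitters' processing notes name HISAT, HTSeq, limma and the build mm10. The values deposited by the authors are log2 CPM in the form of limma's voom, with 0.5 reads added and totals scaled by TMM. Solving this for reads gave whole numbers, within 0.01, in 100% of cells, and the scale factors multiplied to 1.0. CPM given here are these reads over the scaled total.

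The test was limma (version 3.58.1, R version 4.3.3) with a trend in the variance, fitted to the log2 table. Count models were not run, because the deposited unit is log2. In a simulated table of 13912 genes with 200 changes, 94% of 2-fold and 100% of 4-fold changes were recovered, beside 9 false calls. The changed genes were drawn from well-read ones, and every gene had a dispersion of 0.0274. These rates thus do not cover genes with few reads, or a table in which 48.2% of genes are called. A ratio of 2 genes was tested as 1 more row of the table. The planned form, which subtracts the denominator from all genes, was replaced after the data were seen, since all its rows share the noise of 1 gene. Lengths and coordinates come from GENCODE M21 (GRCm38, which is mm10), matched by symbol for 13391 of 13912 genes (96.3%). Counting intervals are exact binomial at 95% and cover counting error only, since reads are not independent molecules.

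The 10 genes, the gene lists and the pairs were chosen with earlier results of these data known. Named genes are the 10, up to 4 called genes of each list by size of change, the paired genes and the 2 nearest profiles of each of the 10 among genes with a mean of at least 1 log2 CPM. One gene that this rule names is not reported here. Other named genes are said to be so, apart from those given for shared or overlapping sequence. Alternatives were 3 scalings, voom weights, 2 added reads, a filter on the mean, no variance trend, and each library left out.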

Additional observations from a re-analysis of the deposited data

How the results depend on the processing

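Each of the 8 genes called higher was called under all alternatives that tested it, 13 for each but Slc2a3 and Hk3, which the filter on a mean of at least 1 removed. Their changes ranged from 0.52 to 0.90 for Hk1, 1.20 to 1.68 for Hk2, 1.25 to 1.76 for Pfkp, 1.84 to 2.46 for Slc2a1, 2.59 to 3.41 for Pfkfb3, 7.77 to 9.51 for Slc16a3, 7.88 to 11.08 for Slc2a3 and 9.56 to 12.21 for Hk3. Ldha stood at -0.01 (adjusted p = 0.971) after quantile normalization. The count of called genes was 4821 to 7926 with 1 library left out and 4631 under the filter. The ratio of Hk2 to Hk1 passed after quantile normalization (0.63, adjusted p = 0.0422), with 2 added reads (0.68, adjusted p = 0.0478) and in the form first planned, with Hk1 subtracted from all genes (0.68, adjusted p = 0.0479), which was replaced after the data were seen. With 1 library left out it was 0.47 to 0.88, and passed without tumour library 2 (adjusted p = 0.0299) or cultured library 1 (0.0439). The ratio of Pfkfb3 to Pfkp was 1.27 to 1.90 with 1 library left out. Further sign changes were Pgam2 (-1.82), Pygm (-0.91) and Hic2 (-0.06) after quantile normalization, while Txnip ranged from -1.47 to 1.64 with 1 library left out. Pfkfb2 stood at -0.17 after centring, -0.07 after quantile normalization and between -0.11 and 0.26 with 1 library left out. The cause was not tested. No paired analysis was possible because the groups share no library numbers. Counting error limits genes with few cultured reads, such as Slc2a3 and Hk3.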
